A study of Mus musculus with 69 samples.

Results

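The step described here is the first 4 days of embryoid body formation by mouse embryonic stem (ES) cells kept in GSK343, an inhibitor of the histone methyltransferase EZH2. It was chosen by its labels, as the 2 RNA-seq libraries of GSK343 day 4 embryoid bodies set against the 2 libraries of GSK343 ES cells, and it holds 4 of the 69 samples of the series. The cells are CJ7, an established mouse ES cell line. GSK343 (4 µM) was present in the last 3 days before differentiation and throughout it, so the ES cells of this step had already been exposed to it, and both groups carry the inhibitor. The ES cells grew on a layer of PMEF-N feeder cells in medium with LIF and 20% FBS, and the embryoid bodies formed in hanging drops in medium with 20% FBS for which no LIF or feeder layer is listed. Time, LIF, feeder cells and culture format therefore changed together and cannot be told apart. The same step was read in DMSO day 4 embryoid bodies and DMSO ES cells, which received an equal volume of the solvent (2 libraries each). It was also read in libraries labelled mutant, described in the series' design text as EZH2-mutant with no allele stated in the sources used here, and in wild-type libraries, none of them labelled with GSK343 or DMSO (3 libraries at day 4 and 3 of ES cells each).

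As background, EZH2 is the main catalytic subunit of Polycomb repressive complex 2 (PRC2), which also needs EED and SUZ12 and places methyl groups on lysine 27 of histone H3, a mark (H3K27me3) found at silent developmental genes. GSK343 competes with the methyl donor S-adenosylmethionine at EZH2. Mouse ES cells in LIF resemble the preimplantation epiblast and are called naive: LIF acts through its receptor and STAT3 and helps to keep transcription factors such as ESRRB, KLF4 and TFCP2L1 expressed. Without LIF, ES cells pass into a formative or primed state like the postimplantation epiblast, marked by OTX2, FGF5, POU3F1 and the de novo DNA methyltransferases, and from there can enter the germ layers.

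Expression was given by the authors as RPKM, reads scaled to gene length in kilobases and to library depth. A log2 difference is the mean of log2(RPKM + 1) in GSK343 day 4 embryoid bodies minus that in GSK343 ES cells. It was tested with limma over all 14016 genes with at least 0.5 RPKM in 2 or more of the 12 GSK343 and DMSO libraries, and a gene is said to have risen or fallen where its Benjamini-Hochberg adjusted p was under 0.05. Adding 1 RPKM understates the change of genes with low values. No label says that the replicate libraries came from separate cultures, so the p-values measure the spread between these libraries only.

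The GSK343 day 4 libraries held 17.4 and 18.8 M reads and the GSK343 ES cell libraries 19.6 and 5.01 M, so ES cell library 2 was the shallowest of the 4. Rn45s, the ribosomal RNA precursor, took 10.8 and 8.43% of the reads at day 4 and 7.60 and 8.27% in ES cells. Log values correlated across genes with Pearson's r of 0.986 between the day 4 libraries, 0.985 between the ES cell libraries and 0.929 to 0.947 between the groups. The ES cell label was borne out by its markers: Pou5f1 (Oct4) stood at 492 and 488 RPKM, Sox2 at 320.5 and 342 RPKM, Nanog at 59.9 and 66.9 RPKM, Zfp42 (Rex1) at 341 and 354 RPKM and Esrrb at 87.4 and 78.9 RPKM in the GSK343 ES cells. Pou5f1 was also high at day 4 (534 and 657 RPKM), so it does not set the 2 groups apart. The GSK343 ES cell libraries also held RNA of fibroblast genes. The summed RPKM of 27 feeder fibroblast markers was 113 and 87.7 at day 4 and 673 and 436 in ES cells, and their part in the other results was not tested.

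From ES cells to day 4 under GSK343, 1367 genes rose (9.75% of those tested) and 1722 fell (12.3%), so that 3089 (22.0%) passed the test, and 5069 (36.2%) had an unadjusted p under 0.05. Among the rises 495 were above 1 on the log2 scale, 72 above 2 and 13 above 3. Falls were more often large, with 739 below -1, 162 below -2 and 45 below -3. The median log2 difference of all genes was -0.01, and 48.9% of genes lay above 0. When each library was centred on its median, 1774 genes rose and 1392 fell, so the balance between rises and falls depended on the scaling. Leaving out ES cell library 2 gave 1238 calls and leaving out day 4 library 1 gave 1527, against 1822 without day 4 library 2 and 2393 without ES cell library 1. In all 4 of these fits 992 genes passed, 396 of them higher and 596 lower at day 4. The authors' deposited table gives, for the same contrast, 3431 of 14607 genes (23.5%) at its FDR under 0.05. Of its 3229 calls among the genes tested here, 2388 passed here in the same direction (74.0% of those calls and 77.3% of the calls made here), and 0 passed in the opposite direction. Both sets of calls come from the same libraries, so this overlap, and the equal directions above all, is no separate evidence.

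**Figure D1:**
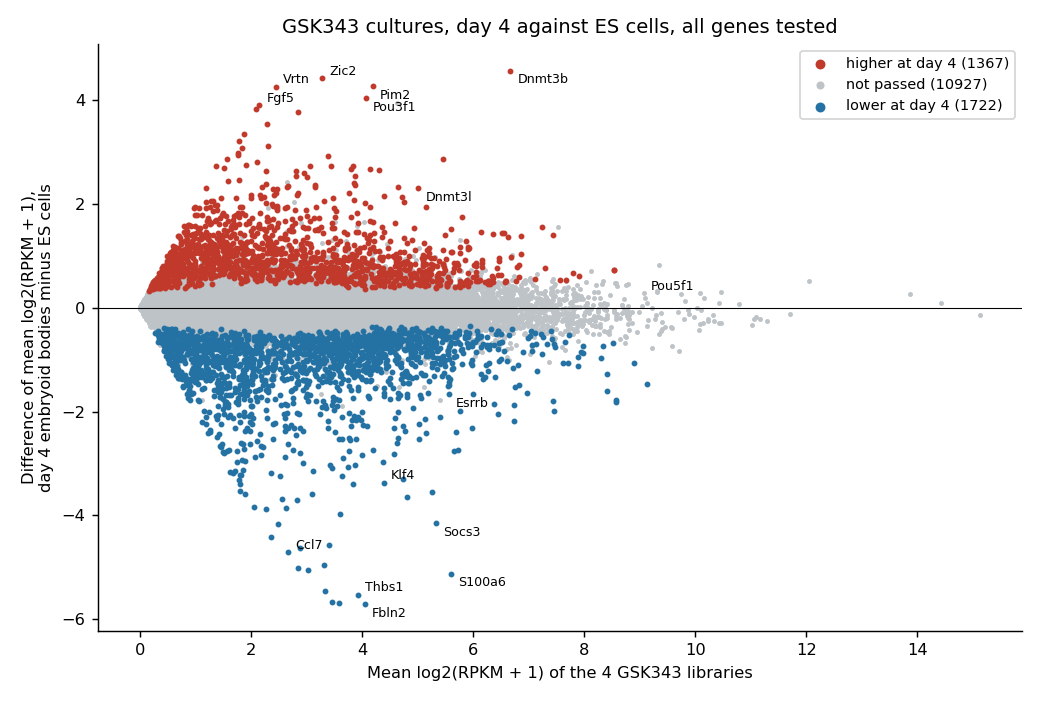
Log2 difference between GSK343 day 4 embryoid bodies and GSK343 ES cells (y axis) against the mean log2(RPKM + 1) of the 4 libraries (x axis), 1 point for each of the 14016 genes tested. Red points are the 1367 genes higher at day 4 and blue points the 1722 lower, both at an adjusted p under 0.05, with the largest falls reaching further from 0 than the largest rises.

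The 10 largest rises included 5 genes of the formative and primed state, Dnmt3b, Zic2, Pou3f1, Fgf5 and Sall2. Dnmt3b, a de novo DNA methyltransferase, had 395 and 615 RPKM in GSK343 day 4 embryoid bodies and 26.7 and 14.8 RPKM in GSK343 ES cells (log2 difference 4.56, SE 0.55, adjusted p = 0.000597). Zic2, a zinc-finger transcription factor, had 42.3 and 45.2 RPKM at day 4 and 1.44 and 0.808 RPKM in ES cells (log2 difference 4.41, SE 0.30, adjusted p = 2.78e-05). Both genes were low in both ES cell libraries and high in both day 4 libraries. The rule for naming these 10 genes required that the groups not overlap. Pim2, a serine/threonine kinase, had 78.8 and 80.1 RPKM at day 4 and 2.62 and 3.82 RPKM in ES cells (log2 difference 4.27, SE 0.42, adjusted p = 0.000239). Vrtn, whose product vertnin is tied to the number of vertebrae in pigs, had 18.02 and 28.9 RPKM at day 4 and 0.494 and 0.0554 RPKM in ES cells (log2 difference 4.25, SE 0.48, adjusted p = 0.000392). The day 4 libraries agreed closely for Pim2 and less so for Vrtn, and no ES cell value came near a day 4 value for either gene. Pou3f1 (Oct6), a POU transcription factor of the epiblast and nervous system, had 60.0 and 73.9 RPKM at day 4 and 3.69 and 2.66 RPKM in ES cells (log2 difference 4.03, SE 0.39, adjusted p = 0.000207). Fgf5, a secreted growth factor and classical epiblast marker, had 16.5 and 15.7 RPKM at day 4 and 0.224 and 0.0798 RPKM in ES cells (log2 difference 3.89, SE 0.41, adjusted p = 0.000305), so both ES cell libraries were nearly empty of it and both day 4 libraries were alike.

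Enpp2, which encodes autotaxin, an enzyme that makes lysophosphatidic acid, had 12.6 and 17.9 RPKM at day 4 and 0.147 and 0.115 RPKM in ES cells (log2 difference 3.82, SE 0.32, adjusted p = 9.04e-05). Sall2, a zinc-finger transcription factor, had 22.9 and 28.1 RPKM at day 4 and 1.16 and 0.749 RPKM in ES cells (log2 difference 3.76, SE 0.28, adjusted p = 4.25e-05). The groups did not overlap for either gene, which the naming rule required. Kcnj3, a subunit of G-protein-gated potassium channels, had 18.6 and 13.3 RPKM at day 4 and 0.792 and 0.153 RPKM in ES cells (log2 difference 3.54, SE 0.56, adjusted p = 0.00227). Foxi3, a forkhead transcription factor, had 8.73 and 10.4 RPKM at day 4 and 0.296 and 0 RPKM in ES cells (log2 difference 3.21, SE 0.33, adjusted p = 0.000305), and its ES cell library 2 held no read. Each of these 10 genes still passed in all 4 fits that left out a GSK343 library.

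The first 4 of these genes with an entry in RefSeq's promoter table (GRCm38.p6) are shown by the 250 bases before their first listed start, 5′ to 3′ on the gene's strand, because they were the largest rises with an entry. Capitals mark the octamer ATGCAAAT, the site of POU factors such as OCT4, on either strand. The windows lie at chr2:153649199-153649448, plus strand for Dnmt3b, chrX:7878056-7878305, plus strand for Pim2, chr12:84640769-84641018, plus strand for Vrtn and chr5:98253934-98254183, plus strand for Fgf5.
Dnmt3b: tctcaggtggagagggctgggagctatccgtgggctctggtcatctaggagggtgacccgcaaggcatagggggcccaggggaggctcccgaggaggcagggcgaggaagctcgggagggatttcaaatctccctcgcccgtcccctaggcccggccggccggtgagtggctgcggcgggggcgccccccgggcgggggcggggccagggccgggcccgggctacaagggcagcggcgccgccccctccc
Pim2: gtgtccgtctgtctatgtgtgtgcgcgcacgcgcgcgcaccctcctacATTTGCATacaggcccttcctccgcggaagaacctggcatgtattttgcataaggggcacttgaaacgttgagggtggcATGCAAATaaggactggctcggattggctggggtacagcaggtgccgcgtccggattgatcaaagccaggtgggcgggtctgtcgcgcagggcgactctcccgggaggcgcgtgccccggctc
Vrtn: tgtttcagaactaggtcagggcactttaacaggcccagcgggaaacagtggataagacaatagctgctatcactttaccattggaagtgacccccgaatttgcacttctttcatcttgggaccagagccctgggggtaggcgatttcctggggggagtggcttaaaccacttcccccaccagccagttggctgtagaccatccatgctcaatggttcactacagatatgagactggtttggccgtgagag
Fgf5: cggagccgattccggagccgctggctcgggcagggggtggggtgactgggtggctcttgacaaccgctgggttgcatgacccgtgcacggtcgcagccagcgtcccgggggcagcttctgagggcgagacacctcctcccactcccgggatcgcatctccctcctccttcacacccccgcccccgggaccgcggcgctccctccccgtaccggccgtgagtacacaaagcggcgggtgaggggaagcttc
The Dnmt3b, Pim2 and Fgf5 windows held 21, 22 and 24 CpG dinucleotides and that of Vrtn held 4, against a median of 16 over the 10854 tested genes with an entry. Pim2 had 2 octamer matches and the other 3 windows had none, while 1.42% of all promoter windows held a match. The windows of Vrtn and Fgf5 overlapped an H3K27me3 peak of the wild-type cells and those of Dnmt3b and Pim2 did not, while all 4 genes rose.

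The 10 largest falls included genes of the extracellular matrix, of matrix breakdown and of chemokines. Fbln2 (fibulin-2, a matrix protein) had 1.23 and 1.36 RPKM in GSK343 day 4 embryoid bodies and 145 and 97.3 RPKM in GSK343 ES cells (log2 difference -5.71, SE 0.23, adjusted p = 1.29e-06). Tnc (tenascin-C, a matrix glycoprotein) had 0.900 and 0.486 RPKM at day 4 and 118 and 61.7 RPKM in ES cells (log2 difference -5.68, SE 0.34, adjusted p = 1.42e-05). Both day 4 libraries were close to empty of these genes and both ES cell libraries were high. S100a4, a calcium-binding protein used as a fibroblast marker, had 0.807 and 0.319 RPKM at day 4 and 99.2 and 59.7 RPKM in ES cells (log2 difference -5.66, SE 0.35, adjusted p = 1.60e-05). S100a6, a related calcium-binding protein, had 7.36 and 7.09 RPKM at day 4 and 353 and 230.4 RPKM in ES cells (log2 difference -5.12, SE 0.61, adjusted p = 0.000540). The 2 groups did not overlap for either S100 gene, which the naming rule required. Thbs1 (thrombospondin 1) had a log2 difference of -5.53, Mmp3 (the matrix protease stromelysin 1) of -5.46, Postn (periostin) of -5.002 and Emp1 (epithelial membrane protein 1) of -4.94. The chemokine genes Ccl2 and Ccl7 followed at -5.05 and -4.71. All 10 passed in every fit that left out a GSK343 library.

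**Figure D2:**
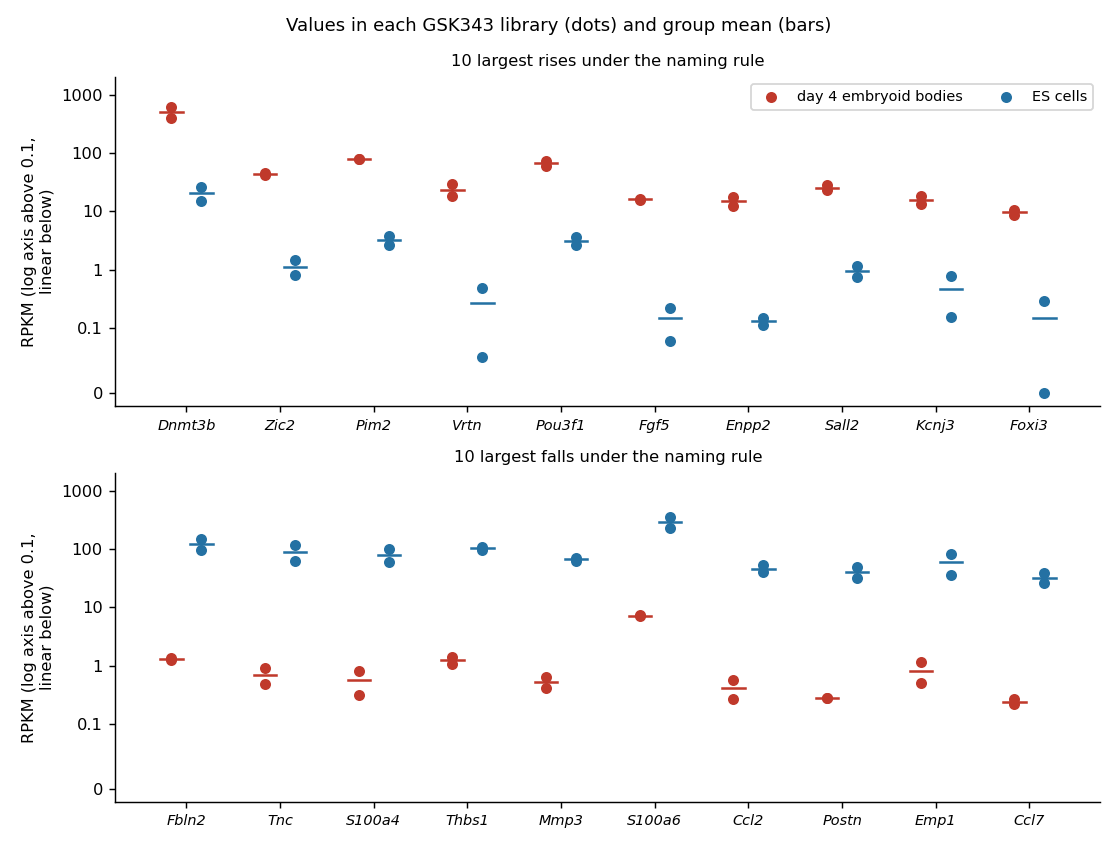
RPKM (log axis above 0.1, linear below) of the 10 largest rises and the 10 largest falls, in each of the 2 GSK343 day 4 libraries (left of each pair) and the 2 GSK343 ES cell libraries (right). The values of the groups do not overlap for any of the 20 genes, which the rule for naming them required.

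Of the 26 tested feeder fibroblast markers, 0 rose and 22 fell, with a median log2 difference of -2.40. At day 4, 17 of the 27 listed markers were under 1 RPKM in both libraries and 1 was at 0 in a library. Col1a2 (a chain of type I collagen) had 0.562 and 0.397 RPKM at day 4 and 46.1 and 27.2 RPKM in ES cells (log2 difference -4.63, SE 0.74, adjusted p = 0.00240), and Lox (lysyl oxidase, which crosslinks collagen) had 0.187 and 0.0538 RPKM at day 4 and 30.6 and 16.9 RPKM in ES cells. Both genes were far lower in both day 4 libraries than in either ES cell library. Mmp2, Fbn1, Sparc and Tgfbi did not pass, at 0.46, -0.83, -0.69 and -1.31. With a GSK343 library left out, 17 to 22 markers fell. The ES cells were grown on feeder cells, and in bulk RNA fewer cells of a type and less RNA per cell cannot be told apart. The feeder markers summed to 99.6 and 92.4 RPKM in the DMSO day 4 embryoid bodies and 288 and 382 RPKM in the DMSO ES cells, so the GSK343 ES cell libraries held more of this RNA than the DMSO ES cell libraries. Xist, which silences the X chromosome of female cells, had 1.34 and 0.279 RPKM at day 4 and 0.822 and 0.647 RPKM in ES cells, and the groups overlapped.

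The promoter windows of Fbln2 (chr6:91212514-91212763, plus strand) and Tnc (chr4:64047016-64047265, minus strand) are shown as those of the largest falls with an entry, with the octamer in capitals as before.
Fbln2: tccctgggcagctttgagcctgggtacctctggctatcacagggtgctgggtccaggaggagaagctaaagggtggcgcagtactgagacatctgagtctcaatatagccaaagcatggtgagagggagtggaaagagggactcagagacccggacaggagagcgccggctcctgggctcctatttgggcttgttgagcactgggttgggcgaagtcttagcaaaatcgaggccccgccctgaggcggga
Tnc: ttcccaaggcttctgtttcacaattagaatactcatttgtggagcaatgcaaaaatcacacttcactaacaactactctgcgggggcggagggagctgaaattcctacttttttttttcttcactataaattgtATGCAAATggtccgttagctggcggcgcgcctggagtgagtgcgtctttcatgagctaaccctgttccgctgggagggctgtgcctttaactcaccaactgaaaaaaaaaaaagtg
Both held 8 CpG dinucleotides and overlapped a wild-type H3K27me3 peak, and Tnc held 1 octamer match. Neither they nor the 4 windows of the largest rises held a match on either strand to the STAT site TTCCNGGAA, the AP-1 site TGANTCA or the hypoxia response element core ACGTG. Over all windows, 0.931%, 3.99% and 21.9% held these motifs.

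Most of the listed formative and primed genes rose. Of 12 members 10 rose and 0 fell, with a median log2 difference of 2.58, against the median of -0.01 over all genes. The counts of this and the later lists stand against 9.75% of all genes that rose and 12.3% that fell. The members and lists were chosen with earlier results of these data known, so the counts of all lists are descriptions. The 10 were Dnmt3b, Zic2, Pou3f1, Fgf5 and Sall2, described above, with Otx2, Dnmt3a, Lef1, Sox3 and Sox4. Otx2, the homeodomain factor that moves enhancer use from the naive to the formative state, had 47.7 and 61.0 RPKM at day 4 and 7.80 and 17.0 RPKM in ES cells (log2 difference 2.13, SE 0.30, adjusted p = 0.00132). Lef1, a transcription factor at the end of the WNT pathway, had 8.88 and 4.39 RPKM at day 4 and 0.276 and 0 RPKM in ES cells (log2 difference 2.69, SE 0.38, adjusted p = 0.00121). Both genes stood clear of their ES cell values in both day 4 libraries. Sox3, a SOX factor of epiblast and neural progenitors, had 6.30 and 8.08 RPKM at day 4 and 0.568 and 0.387 RPKM in ES cells (log2 difference 2.46, SE 0.38, adjusted p = 0.00190). Sox4 had a log2 difference of 1.86. The WNT ligand Wnt8a (1.08, adjusted p = 0.335) and the epiblast factor Tcf15 (0.49, adjusted p = 0.293) did not pass. Whichever GSK343 library was left out, 10 members of the list rose.

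Naive pluripotency genes moved the other way. Of 14 members 0 rose and 11 fell, with a median of -1.52. Klf4, a Krüppel-like factor of the naive network, had 6.75 and 4.54 RPKM at day 4 and 62.0 and 71.4 RPKM in ES cells (log2 difference -3.37, SE 0.23, adjusted p = 3.13e-05). Tfcp2l1, a factor of the LIF branch of that network, had 10.96 and 8.17 RPKM at day 4 and 56.4 and 61.0 RPKM in ES cells (log2 difference -2.51, SE 0.28, adjusted p = 0.000392). Neither gene overlapped between the groups, but the share of all genes without overlap was not counted. Esrrb, an orphan nuclear receptor, had 27.5 and 23.4 RPKM at day 4 and 87.4 and 78.9 RPKM in ES cells (log2 difference -1.67, SE 0.27, adjusted p = 0.00242). Zfp42 had 148 and 173 RPKM at day 4 and 341 and 354 RPKM in ES cells (log2 difference -1.11, SE 0.27, adjusted p = 0.0174). Both were lower in both day 4 libraries than in either ES cell library and were still well detected. Tbx3 (-2.04), Tcl1 (-2.17), Prdm14 (-1.86), Fbxo15 (-1.38), Nr5a2 (-1.09), Tdh (-0.96) and Klf2 (-0.80) also fell. Klf5 (-0.58, adjusted p = 0.186), Nr0b1 (0.46, adjusted p = 0.216) and Dppa3 (-1.90, adjusted p = 0.0641) did not pass. With a GSK343 library left out, 4 to 9 members of the list fell.

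**Figure D3:**
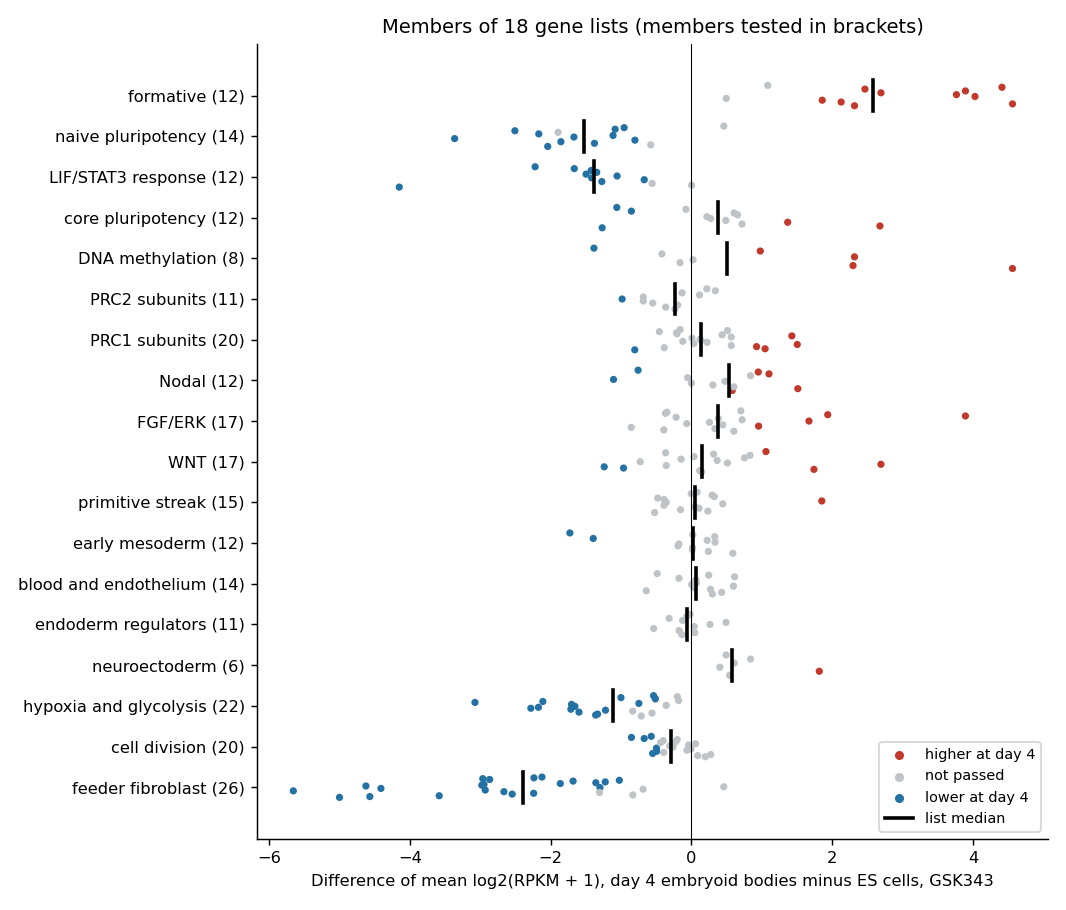
Log2 differences between GSK343 day 4 embryoid bodies and GSK343 ES cells (x axis) for the members of 18 gene lists (rows), 1 point a gene, coloured by whether it rose, fell or did not pass. Formative genes lie to the right of 0 with a median of 2.58, and naive, LIF/STAT3, hypoxia and feeder genes to the left with medians of -1.52, -1.38, -1.11 and -2.40.

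Most of the listed genes that respond to LIF through STAT3 fell: of 12 members 0 rose and 10 fell, with a median of -1.38. Socs3, the feedback inhibitor of the LIF receptor, had 9.02 and 8.03 RPKM at day 4 and 156 and 181 RPKM in ES cells (log2 difference -4.15, SE 0.18, adjusted p = 1.29e-06). Bcl3, an IκB-family co-regulator, had 1.599 and 1.42 RPKM at day 4 and 12.8 and 8.93 RPKM in ES cells (log2 difference -2.22, SE 0.23, adjusted p = 0.000305). The receptor subunit genes Lifr and Il6st fell by 1.06 and 0.67 on the log2 scale, and Stat3 itself had 17.5 and 16.5 RPKM at day 4 and 40.3 and 44.9 RPKM in ES cells (log2 difference -1.27, SE 0.14, adjusted p = 0.000392). The kinase genes Pim1, Pim3 and Sgk1, the AP-1 gene Junb and the oncostatin M receptor gene Osmr fell as well, by 1.35 to 1.67. Pim1 and Pim3 thus fell while their paralog Pim2 was among the largest rises. Gbx2 (-0.56, adjusted p = 0.398) and Cish (0.00, adjusted p = 0.995) did not pass. With a GSK343 library left out, 9 or 10 members of the list fell.

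The Socs3 promoter window (chr11:117969367-117969616, minus strand) is shown because the gene fell most in this list. It was chosen after its values were seen.
Socs3: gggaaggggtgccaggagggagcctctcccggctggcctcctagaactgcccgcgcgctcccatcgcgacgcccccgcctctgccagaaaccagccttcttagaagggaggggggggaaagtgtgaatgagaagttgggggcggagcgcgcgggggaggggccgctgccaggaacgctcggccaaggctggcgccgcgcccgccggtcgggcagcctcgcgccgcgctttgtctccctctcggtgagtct
It held 26 CpG dinucleotides, overlapped a wild-type H3K27me3 peak and held no match to the 4 motifs. None of the 12 windows of the LIF and STAT3 genes held TTCCNGGAA, which was found in 0.931% of all windows and concerns these 250 bases only.

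Genes shared by naive and primed pluripotency did not move as a group: of 12 core members 2 rose and 3 fell, with a median of 0.38. Pou5f1 had 534 and 657 RPKM at day 4 and 492 and 488 RPKM in ES cells (log2 difference 0.27, SE 0.17, adjusted p = 0.268), a difference that did not pass. Foxd3, a forkhead factor of the epiblast, had 28.4 and 41.2 RPKM at day 4 and 6.21 and 3.20 RPKM in ES cells (log2 difference 2.68, SE 0.36, adjusted p = 0.000998), and Lin28a, which blocks let-7 maturation, rose by 1.37 on the log2 scale. Sox2 had 182 and 184 RPKM at day 4 and 320.5 and 342 RPKM in ES cells (log2 difference -0.85, SE 0.17, adjusted p = 0.00743). Nanog had 29.0 and 30.6 RPKM at day 4 and 59.9 and 66.9 RPKM in ES cells (log2 difference -1.06, SE 0.25, adjusted p = 0.0148), and the NODAL co-receptor gene Tdgf1 fell by 1.27. Nanog and Lin28a each lost their call in 3 of the 4 fits that left out a library. Sox2 lost it without ES cell library 2 (adjusted p = 0.0571).

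Genes of DNA methylation rose in part: of 8 members 4 rose (Dnmt3b, Dnmt3a, Dnmt3l and Tet3) and 1 fell (Tet2). With a GSK343 library left out, 3 or 4 members rose and 1 fell. Dnmt3a had 55.4 and 55.0 RPKM at day 4 and 15.0 and 6.95 RPKM in ES cells (log2 difference 2.32, SE 0.39, adjusted p = 0.00319). Dnmt3l, a catalytically inactive partner of both de novo enzymes, had 68.7 and 72.0 RPKM at day 4 and 13.8 and 13.3 RPKM in ES cells (log2 difference 2.295, SE 0.17, adjusted p = 3.74e-05). The day 4 libraries were several times above the ES cell libraries for both. Tet3, a dioxygenase that oxidises 5-methylcytosine, rose by 0.98 and its relative Tet2 fell by 1.39. The maintenance genes Dnmt1 (-0.16) and Uhrf1 (0.02) and Tet1 (-0.42) did not pass. Dnmt3a and Dnmt3b also stand in the formative list.

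The target of the inhibitor was read in every library, as RNA only. Ezh2 had 42.4 and 31.9 RPKM at day 4 and 58.2 and 50.7 RPKM in ES cells (log2 difference -0.55, SE 0.23, adjusted p = 0.111), Eed 65.4 and 53.4 RPKM at day 4 and 79.4 and 57.9 RPKM in ES cells (adjusted p = 0.562), and Suz12 99.9 and 63.2 RPKM at day 4 and 149.5 and 110.3 RPKM in ES cells (adjusted p = 0.170). None of the 3 passed, although Ezh2 and Suz12 did once same-numbered libraries were paired (adjusted p = 0.00772 for Ezh2 and 0.0131 for Suz12). RNA levels give no reading of the enzyme's inhibition. Of 11 PRC2 genes 0 rose and 1 fell: Ezh1, the paralog of EZH2, had 11.7 and 14.0 RPKM at day 4 and 20.2 and 34.2 RPKM in ES cells (log2 difference -0.99, SE 0.24, adjusted p = 0.0182), and it lost its call without day 4 library 1 and without ES cell library 2. Of 20 PRC1 genes, which encode the complex that ubiquitinates histone H2A, 4 rose and 1 fell, near the 22.0% of all genes called. The other counts of this paragraph are to be read against that share as well. Bcor (1.503) and Kdm2b (1.43), both of the variant complex PRC1.1, rose with Phc1 (1.05) and Cbx6 (0.92), and Pcgf5 (-0.81) fell. Cbx6 lost its call in 1 of the 4 fits that left out a GSK343 library. Of 10 genes for H3K27 demethylases and COMPASS complexes, which act on the opposite side to Polycomb, 0 rose and 0 fell. This count was not stable: 0 to 5 rose with a GSK343 library left out, and up to 6 rose and up to 2 fell under the other settings. Among the 4 INK4 inhibitors of cyclin-dependent kinases, which include classical Polycomb targets, 0 rose and 2 fell (Cdkn2b at -0.98 and Cdkn2d at -0.65). Cdkn2d lost its call in all 4 fits without a library and Cdkn2b in 2. Cdkn2a had 13.5 and 10.8 RPKM at day 4 and 19.9 and 11.6 RPKM in ES cells (log2 difference -0.31, SE 0.26, adjusted p = 0.429) and did not pass.

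Germ layer genes were mostly too low at day 4 for their counts to be read against the 22.0% called over all genes. In both day 4 libraries 11 primitive streak, 13 early mesoderm, 12 blood and endothelium and 9 endoderm genes were under 1 RPKM, where the added 1 RPKM mutes a change. Of 15 primitive streak genes 1 rose and 0 fell: the WNT ligand gene Wnt3 had 6.19 and 2.11 RPKM at day 4 and 0.524 and 0.128 RPKM in ES cells (log2 difference 1.85, SE 0.55, adjusted p = 0.0382), and it lost its call in 3 of the 4 fits that left out a GSK343 library. T (Brachyury) had 0.506 and 0.130 RPKM at day 4 and 2.52 and 0 RPKM in ES cells, so its higher value came from 1 ES cell library and the groups overlapped. Mixl1 had 0.453 and 0.325 RPKM at day 4 and 0.178 and 0.0873 RPKM in ES cells, and Eomes 5.41 and 4.70 RPKM at day 4 and 3.90 and 4.41 RPKM in ES cells, and neither passed (adjusted p = 0.624 and 0.759). Of 12 early mesoderm genes 0 rose and 2 fell, Pdgfra (-1.73) and Tbx20 (-1.40), of which Pdgfra, a receptor that fibroblasts also carry, lost its call in all 4 fits without a library. The 14 blood and endothelium genes and the 11 endoderm regulators held 0 calls in either direction. Of 11 visceral endoderm genes 1 rose, Lrp2 (the endocytic receptor megalin), with 30.6 and 28.9 RPKM at day 4 and 12.4 and 8.56 RPKM in ES cells (log2 difference 1.44, SE 0.27, adjusted p = 0.00509), a call lost without ES cell library 2 (adjusted p = 0.0501). Of 6 neuroectoderm genes 1 rose, Nes (the intermediate filament nestin), with 25.4 and 29.2 RPKM at day 4 and 8.24 and 5.97 RPKM in ES cells (log2 difference 1.82, SE 0.30, adjusted p = 0.00285). Up to 3 of the 6 rose with a GSK343 library left out and up to 4 under the other settings.

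Of 10 trophoblast genes 0 rose and 2 fell, and the counts of this paragraph are to be read against the 22.0% of all genes called. Tfap2c, an AP-2 factor also used in germ cells and naive cells, had 1.89 and 1.90 RPKM at day 4 and 21.0 and 29.0 RPKM in ES cells (log2 difference -3.15, SE 0.44, adjusted p = 0.00118), and the keratin gene Krt19 fell by 1.26. Of 13 germline genes 1 rose, the Tudor-domain gene Tdrd1 (1.11), and 1 fell, Piwil2 (-0.56), a Piwi protein of the piRNA pathway. Krt19 and Piwil2 lost their calls in every fit that left out a GSK343 library. Of 15 Hox genes tested 0 rose and 4 fell, among them Hoxd8 (-0.94), Hoxb9 (-0.90) and Hoxb13 (-0.62). These 3 passed in all 4 fits. The genes of the 2-cell-like state that had been listed were not analysed here.

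Signalling genes were called at shares that are to be read against the 22.0% of all genes. Of 17 FGF and ERK genes 4 rose and 0 fell: besides Fgf5, these were the ligand gene Fgf15 (1.67), the receptor gene Fgfr2 (0.95) and the ERK phosphatase gene Dusp4, with 56.1 and 83.9 RPKM at day 4 and 17.8 and 16.6 RPKM in ES cells (log2 difference 1.94, SE 0.33, adjusted p = 0.00313). Fgf15 lost its call in 2 of the 4 fits that left out a GSK343 library. Of 12 NODAL genes 4 rose and 2 fell. The antagonist Lefty1 had 55.0 and 73.1 RPKM at day 4 and 32.9 and 25.6 RPKM in ES cells (log2 difference 1.10, SE 0.18, adjusted p = 0.00233), and the ligand gene Gdf3 (0.58) and the SMAD partner Foxh1 (0.95) were among the others that rose. The receptor gene Acvr1b (-1.11) and the inhibitor Smad7 (-0.76) fell. Foxh1 lost its call without ES cell library 2.

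Of 17 WNT genes 3 rose, the transcription factors Lef1 and Tcf7l1 (1.74) and the receptor Fzd7 (1.06), and 2 fell, the ligand Wnt5a (-0.97) and the antagonist Sfrp1 (-1.24), whose call was lost in 3 of the 4 fits without a library. Axin2, a general WNT target, was at 0.83 and did not pass (adjusted p = 0.210). Of 12 BMP genes 1 rose and 1 fell: Id2, an inhibitor of basic helix-loop-helix factors, had 6.88 and 6.60 RPKM at day 4 and 2.36 and 2.04 RPKM in ES cells (log2 difference 1.27, SE 0.15, adjusted p = 0.000609), and the ligand Bmp4 had 10.3 and 12.6 RPKM at day 4 and 50.3 and 33.1 RPKM in ES cells (log2 difference -1.76, SE 0.28, adjusted p = 0.00215). Bmp4 was far lower in both day 4 libraries. Of 10 retinoic acid genes 0 rose and 1 fell, Crabp1, a cellular retinoic acid binding protein, with 6.53 and 7.42 RPKM at day 4 and 102 and 94.4 RPKM in ES cells (log2 difference -3.64, SE 0.26, adjusted p = 3.13e-05).

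Some junction genes of epithelia rose and some genes of mesenchyme fell. Their counts are to be read against the 9.75% of all genes that rose and the 12.3% that fell. Of 10 epithelial genes 3 rose (Esrp1 at 1.502, Ocln at 1.14 and Cdh1 at 0.63) and 1 fell (Tjp3 at -1.46). Cdh1 lost its call in all 4 fits that left out a GSK343 library, and Esrp1 and Tjp3 in 2 each. Esrp1, a splicing regulator of epithelial cells, had 11.96 and 16.4 RPKM at day 4 and 3.02 and 5.99 RPKM in ES cells. Of 10 mesenchymal genes 0 rose and 4 fell, Twist2 (-2.76), Vim (-1.87), Tgfb1 (-1.11) and Fn1 (-1.06, a call lost in 2 of the 4 fits without a library). These 4 are also expressed by fibroblasts, and the summed feeder markers given above fell beside them. The part of those cells in this result was not tested. Vim, the intermediate filament vimentin, had 68.4 and 43.5 RPKM at day 4 and 272 and 150.3 RPKM in ES cells (log2 difference -1.87, SE 0.27, adjusted p = 0.00138).

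Most of the listed glycolytic and hypoxia-induced genes fell: of 22 members 0 rose and 15 fell, with a median of -1.11, and 11 to 13 members fell with a GSK343 library left out. Hk1, a hexokinase, which makes the first step of glycolysis, had 5.16 and 5.54 RPKM at day 4 and 24.4 and 36.5 RPKM in ES cells (log2 difference -2.28, SE 0.26, adjusted p = 0.000392). Slc2a3, a glucose transporter, had 193 and 196 RPKM at day 4 and 531 and 656 RPKM in ES cells (log2 difference -1.60, SE 0.20, adjusted p = 0.000804). Both genes were lower in both day 4 libraries. Egln3, a prolyl hydroxylase that marks hypoxia-inducible factor for destruction and is itself induced by it, had 5.27 and 4.66 RPKM at day 4 and 28.7 and 21.4 RPKM in ES cells (log2 difference -2.11, SE 0.17, adjusted p = 6.65e-05). Ankrd37, a small hypoxia-induced gene, had 2.61 and 2.94 RPKM at day 4 and 27.3 and 34.7 RPKM in ES cells (log2 difference -3.08, SE 0.39, adjusted p = 0.000772), so it was the largest fall of the list. Pfkp, a phosphofructokinase, fell by 2.17, and the mitophagy receptor Bnip3 and the growth factor Vegfa by 1.70 and 1.33. Among the 7 that did not pass were the late glycolytic enzymes Eno1 (-0.20), Pkm (-0.18) and Ldha (-0.36). The core ACGTG was found in 8 of the 19 windows of this list with an entry (42.1%), those of Slc2a1, Hk2, Pgk1, Pgam1, Ldha, Bnip3, Egln3 and Ankrd37, and in 21.9% of all windows.

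Of 20 cell division genes 0 rose and 6 fell, with a median of -0.29, and at most 2 members fell when a GSK343 library was left out. Over all genes 12.3% fell. Ccnb2, a B-type cyclin, fell most, by 0.85, and Mki67, the proliferation marker Ki-67, by 0.50. Mki67, Top2a, Ccnb2 and Cenpa did not pass once the libraries were centred on their median. Of 84 ribosomal protein genes 0 rose and 6 fell (median -0.26), against 12.3% of all genes that fell, a family with many processed pseudogenes that can share reads. Of them 2 to 9 fell with a GSK343 library left out, and the median lay between -0.44 and -0.05. Of 16 p53 targets 1 rose, the stress-induced sestrin gene Sesn2 (0.79), and 0 fell, and Sesn2 lost its call in all 4 fits without a library. Of 22 imprinted genes 8 rose and 3 fell, with a median of 0.34, while 9.75% of all genes rose and 12.3% fell. The rises numbered 3 to 7 with a GSK343 library left out, the lowest count without ES cell library 2, and the median lay between 0.17 and 0.56. The maternally expressed noncoding RNA Meg3 had 14.0 and 7.48 RPKM at day 4 and 2.60 and 3.59 RPKM in ES cells (log2 difference 1.47, SE 0.35, adjusted p = 0.0158), and the paternally expressed Ndn, Nnat, Impact and Mest rose by 1.24 to 1.47. H19, a maternally expressed noncoding RNA, had 7.75 and 6.31 RPKM at day 4 and 34.9 and 27.7 RPKM in ES cells (log2 difference -2.003, SE 0.38, adjusted p = 0.00554), and Igf2 beside it fell by 0.87.

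Most of the step was shared with DMSO cultures, where 2395 genes rose (17.1%) and 2203 fell (15.7%), 4598 in all (32.8%). Of the 3089 genes called under GSK343, 3037 (98.3%) had the same sign under DMSO. There 2449 (79.3%) were also called in that direction, while 4 were called in the opposite direction. These shares concern genes chosen by their GSK343 call, and the share of equal signs over all genes is not given here. Leaving out DMSO day 4 library 1, DMSO day 4 library 2 or DMSO ES cell library 2 gave 2306, 2133 and 2275 DMSO calls in place of 4598. Of the 4598, 53.3% were called under GSK343 in the same direction. The log2 differences correlated across the 14016 genes with Pearson's r of 0.875, as a description, since genes are not independent and the libraries share a cell line and a table. A call in one culture and not in the other does not show a difference, so the difference of the steps, GSK343 minus DMSO, was tested in the same fit. It passed for 3 genes, all higher (0.0214%), and for 0 lower, while 1007 genes (7.18%) had an unadjusted p under 0.05. Its median over all genes was -0.06, and 41.4% of genes lay above 0.

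**Figure D4:**
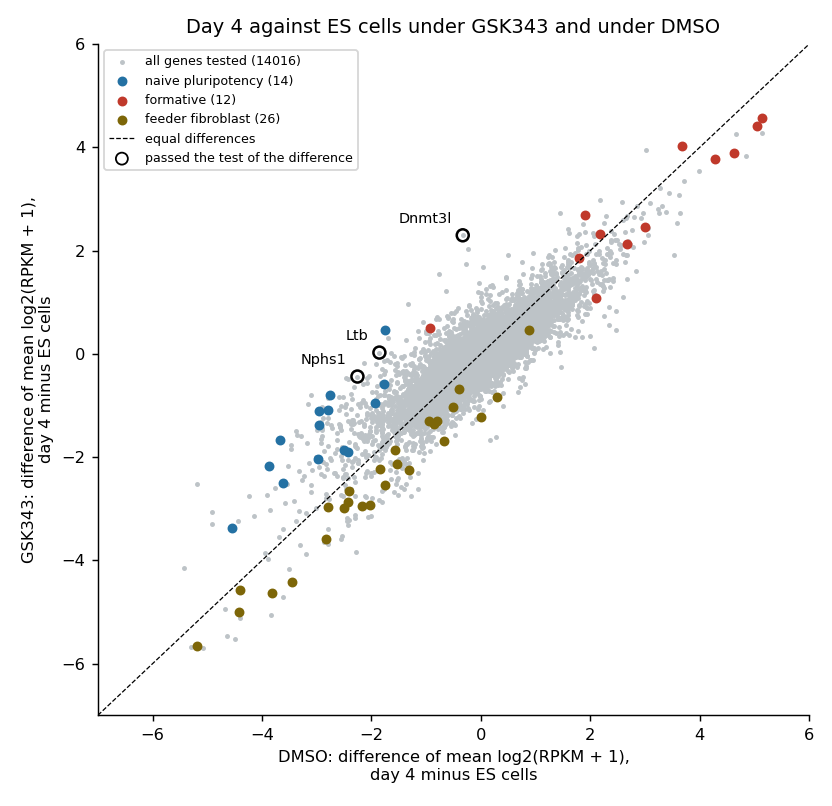
Log2 difference of day 4 embryoid bodies minus ES cells in GSK343 cultures (y axis) against the same in DMSO cultures (x axis), 1 point for each gene tested, with naive, formative and feeder genes coloured. Most genes follow the diagonal (Pearson's r 0.875 across genes). The 14 naive genes lie above it and the 26 feeder genes below it. The circled Dnmt3l, Ltb and Nphs1 are the 3 genes whose steps differed in the test.

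Dnmt3l had the largest difference among the 3 genes that passed (log2 difference 2.63, SE 0.24, adjusted p = 0.00761). Under GSK343 it rose, with the values given above, while under DMSO it had 13.4 and 10.5 RPKM at day 4 and 16.1 and 14.4 RPKM in ES cells (log2 difference -0.33, SE 0.17, adjusted p = 0.154). The 4 ES cell libraries thus lay within 13.3 and 16.1 RPKM, and the day 4 libraries parted by treatment. At day 8 Dnmt3l had 61.4 and 80.2 RPKM under GSK343 and 1.48 and 1.15 RPKM under DMSO. Ltb, which encodes lymphotoxin beta, had 3.21 and 4.03 RPKM in GSK343 day 4 embryoid bodies and 3.40 and 3.65 RPKM in GSK343 ES cells, against 0.569 and 0.550 RPKM in DMSO day 4 embryoid bodies and 4.70 and 4.58 RPKM in DMSO ES cells (difference of steps 1.88, SE 0.22, adjusted p = 0.0252). Nphs1, which encodes nephrin of the kidney filter, had 8.19 and 8.61 RPKM in GSK343 day 4 embryoid bodies and 11.7 and 11.9 RPKM in GSK343 ES cells, against 1.95 and 1.79 RPKM in DMSO day 4 embryoid bodies and 12.8 and 12.6 RPKM in DMSO ES cells (difference of steps 1.82, SE 0.21, adjusted p = 0.0252). Both genes kept most of their ES cell level under GSK343 and lost most of it under DMSO. These 3 calls depended on the libraries used. With 1 of the 8 left out, Dnmt3l passed in 2 of the 8 fits and Ltb and Nphs1 in 0 of 8. The differences of the steps then ran from 2.46 to 2.79 for Dnmt3l, 1.75 to 2.01 for Ltb and 1.77 to 1.86 for Nphs1.

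The promoter window of Dnmt3l (chr10:78042037-78042286, plus strand), the first of 3 listed starts, is shown because its step differed most among the 3 genes that passed. It was chosen after its values were seen.
Dnmt3l: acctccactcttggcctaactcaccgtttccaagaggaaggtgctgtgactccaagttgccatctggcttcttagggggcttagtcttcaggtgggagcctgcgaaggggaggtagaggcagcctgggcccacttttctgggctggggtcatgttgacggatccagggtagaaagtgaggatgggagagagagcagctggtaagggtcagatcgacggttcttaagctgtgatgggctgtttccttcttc
It held 5 CpG dinucleotides and no match to the 4 motifs, and it overlapped a wild-type H3K27me3 peak.

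No naive gene passed the test of the difference between the steps. With the 4 groups fitted alone Zfp42 passed (adjusted p = 0.0422). Under GSK343 the median of the naive genes was -1.52 with 11 of 14 fallen, and under DMSO -2.88 with 14 of 14 fallen. The difference of the steps was above 0 for 14 of 14 members, with a median of 1.38. Over all genes 41.4% lay above 0, with a median of -0.06. Other lists were one-sided as well. Members of a list share the same libraries and were chosen with earlier results known, so such counts are descriptions, not separate readings. The difference lay above 0 for 13 of 13 germline genes (median 0.73), 20 of 22 hypoxia and glycolysis genes and 14 of 16 p53 targets. It lay below 0 for all 26 tested feeder markers (median -0.51), whose part in these differences was not tested. Esrrb was at 6.46 and 3.87 RPKM in DMSO day 4 embryoid bodies and 75.4 and 77.1 RPKM in DMSO ES cells (difference of steps 2.01, SE 0.38, adjusted p = 0.138), so its GSK343 day 4 values of 27.5 and 23.4 RPKM lay above both DMSO day 4 values. Zfp42 had 47.9 and 37.9 RPKM in DMSO day 4 embryoid bodies and 341 and 338 RPKM in DMSO ES cells (difference of steps 1.85, adjusted p = 0.196). Nr0b1, an orphan receptor of the naive network, had 38.2 and 42.9 RPKM at day 4 and 34.4 and 24.7 RPKM in ES cells under GSK343, and 14.6 and 9.94 RPKM at day 4 and 45.7 and 40.3 RPKM in ES cells under DMSO (adjusted p of the difference = 0.126). For all 3 the GSK343 and DMSO day 4 libraries did not overlap. With 2 libraries a group this is a weak sign, and its share over all genes was not counted. The 3 were picked from the 14 members, and none passed in the fit of all 6 groups.

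**Figure D5:**
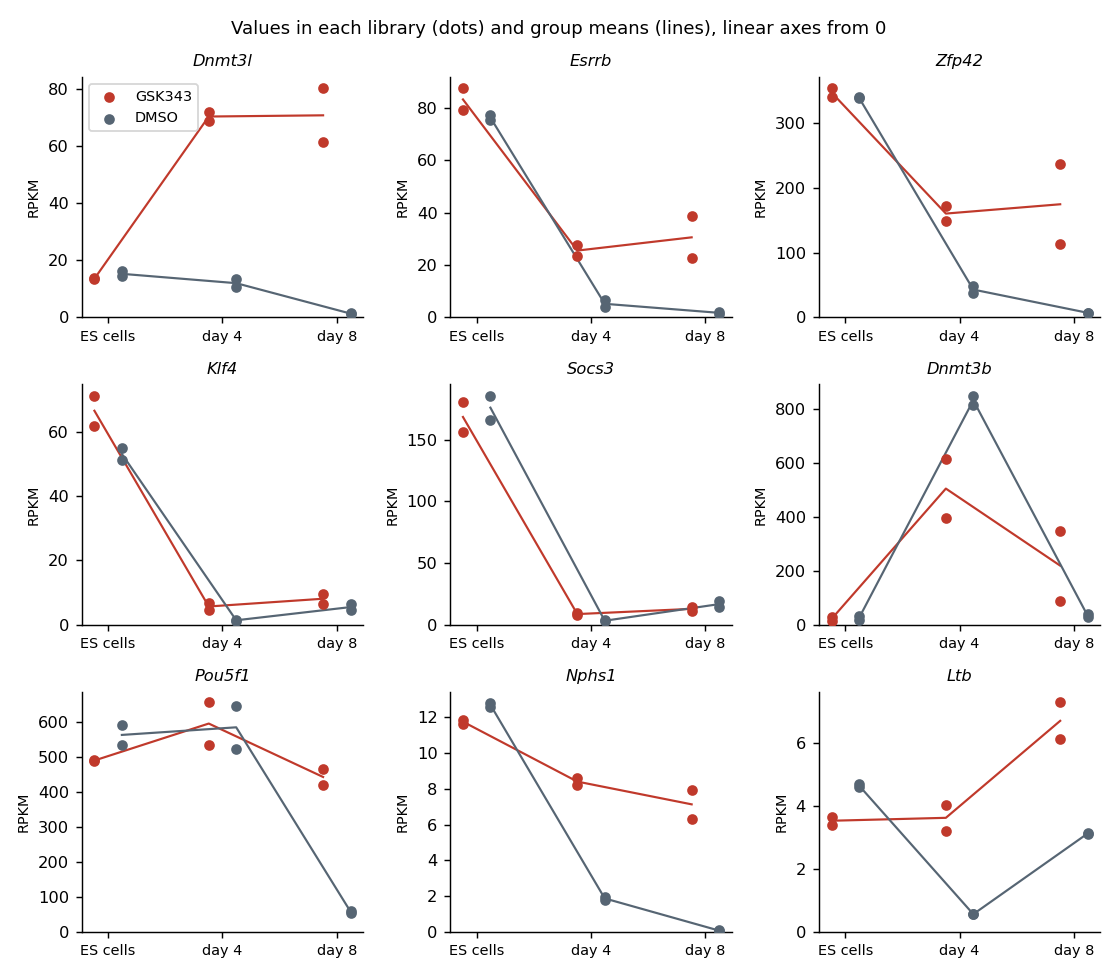
RPKM on linear axes from 0 in ES cells, day 4 and day 8 embryoid bodies for 9 genes, each point a library, GSK343 cultures beside DMSO cultures. Dnmt3l, Nphs1 and Ltb part by treatment at day 4, Esrrb and Zfp42 are higher under GSK343 at day 4, and at day 4 Dnmt3b is high and Socs3 low in both treatments.

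In the mutant and wild-type libraries, whose table was normalized separately so that only values side by side are given, fewer genes passed. The step gave 440 rises (3.1%) and 463 falls (3.27%; 6.37% in all) in mutant cells, and 608 rises (4.29%) and 622 falls (4.39%; 8.67% in all) in wild-type cells. With a library left out the mutant count ran between 323 and 700 and the wild-type count between 357 and 1707. Of 3033 GSK343 calls with values there, 94.5% had the same sign in mutant cells and 94.9% in wild-type cells. In the same direction 21.1% and 27.5% were also called. The share of equal signs over all genes is not given for these cells either. Among calls of genes tested in both tables, 72.3% of 886 in mutant and 68.6% of 1215 in wild-type cells passed in the same direction under GSK343. Dnmt3b rose by 4.56 under GSK343, and by 3.02 (adjusted p = 0.0389) in mutant and 3.90 (adjusted p = 0.00917) in wild-type cells. Fgf5 rose by 3.89 under GSK343 and had 4.07 (adjusted p = 0.00377) in mutant and 3.56 (adjusted p = 0.00843) in wild-type cells. Dnmt3l did not pass there, at -0.61 (adjusted p = 0.692) in mutant and -1.51 (adjusted p = 0.195) in wild-type cells. Esrrb had -1.62 (adjusted p = 0.319) in mutant and -3.79 (adjusted p = 0.0147) in wild-type cells, against -1.67 under GSK343.

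Polycomb targets made up a larger share of the rises and of the falls than of all genes, as counts with no test. The authors' deposited call of PRC2 targets, which comes with no stated rule, was matched to 13222 of the tested genes and marked 4040 as targets (30.6%). It marked 579 of 1253 rises (46.2%) and 676 of 1644 falls (41.1%). Put the other way, 14.3% of targets rose and 16.7% fell, against 7.34% and 10.5% of the genes not marked. With the wild-type H3K27me3 peaks, 377 of 1041 rises with an entry (36.2%) and 412 of 1324 falls (31.1%) overlapped a peak by at least 1 base, against 2212 of all 10854 (20.4%). Peaks of the PRC1 subunit Ring1B overlapped 4.71% of rises, 3.70% of falls and 3.78% of all windows, and those of the PRC2 subunit Suz12 2.59%, 1.89% and 1.70%. By list, an H3K27me3 peak lay on 4 of 7 formative, 5 of 8 naive, 7 of 12 LIF and STAT3 and 6 of 14 feeder promoters, and on 1 of 19 hypoxia and glycolysis promoters. These peaks come from wild-type cells, merged over ES cells, day 4 and day 8, and give no reading of the mark in the GSK343 cultures.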

How the data were processed

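RNA was sequenced from CJ7 ES cells and embryoid bodies. The authors deposited RPKM per gene for the 12 GSK343 and DMSO libraries, 2 in each of 6 groups, and in a second table for 18 wild-type and mutant libraries, together with their own log2 fold changes and FDR-adjusted p-values, per the file headers. The submitters' processing notes name STAR 2.5.3, featureCounts 1.6.1, edgeR, HOMER 4.10.3 and, for CUT&RUN, Bowtie2 2.3.4.3, on mm10. No source used here says whether reads were counted by strand, so reads of overlapping or antisense genes cannot be told apart. All deposited RPKM values of the first table were whole multiples of 1 read within 0.02, which gave the depth of each library (17.4 and 18.8 M reads at day 4, 19.6 and 5.01 M in ES cells).

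On log2(RPKM + 1), limma 3.58.1 in R 4.3.3 (moderated statistics with a trend, two-sided, Benjamini-Hochberg adjustment) fitted all 6 groups of a table at once. Genes with at least 0.5 RPKM in 2 or more of 12 libraries, or 3 or more of 18, were tested. The fit was run on simulated data with independent noise in each library, which does not mimic deviations shared by same-numbered libraries. Named genes were the 10 largest rises and 10 largest falls that passed with at least 5 RPKM in the higher group, no overlap between groups and no predicted, RIKEN, LOC, microRNA, snoRNA or histone name, up to 4 passing members of each list with the smallest p and others needed to account for a list, genes passing the difference of steps, and a short set of Polycomb, pluripotency and streak genes. Members and lists were chosen with earlier results of these data known. Promoters are RefSeq's for GRCm38.p6, matched by symbol to 10854 of the 14016 genes and searched on both strands. Alternatives were another pseudocount and filters, centring, a fit on the contrast's groups alone, a replicate block, voom on the recovered reads and leaving out each library. Results of some genes are not reported here. The number of per-sample columns left unused in the tables read was 0.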

Additional observations from a re-analysis of the deposited data

Results flagged for a closer look

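For 3 genes the step to day 4 differed between GSK343 and DMSO cultures in the test of that difference. The difference of the steps was 2.63 for Dnmt3l, 1.88 for Ltb and 1.82 for Nphs1 on the log2 scale, with adjusted p of 0.00761, 0.0252 and 0.0252. Dnmt3l rose under GSK343 and did not pass under DMSO. Ltb and Nphs1 fell under DMSO, by 1.85 and 2.26, and under GSK343 they stood at 0.02 and -0.44 without passing. With voom on the recovered reads Ltb did not pass (adjusted p = 0.0975).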

How the results depend on the processing

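The 3089 calls of the GSK343 step became 3306 with a pseudocount of 0.1, 3145 with no filter, 2932 with a filter of 1 RPKM, 3166 after centring, 2236 with its 2 groups alone and 2550 with voom. A filter of 0.5 RPKM in the 4 GSK343 libraries, chosen after seeing the data, gave 3035. Leaving out a library gave 1238 to 2393. No named gene that was called changed sign in any of these settings, while the uncalled T, Xist, Ltb, Eed and Cdkn2a did in at least 1. Of 111 called named genes, 79 passed in all 4 fits without a library. After centring, Mki67, Top2a, Ccnb2, Cenpa, Piwil2 and Cdkn2d no longer passed, and with voom 5 named calls were lost, among them Wnt3, Krt19, Cdkn2d and Rps12. The groups alone lost 7 named calls (Piwil2, Cdkn2d, Cenpa, Top2a, Mki67, Rps12 and Car13) and a pseudocount of 0.1 lost Piwil2. With voom Nphs1 passed in the GSK343 step (adjusted p = 0.0497). For the difference of steps, 11 genes passed with the 4 groups alone and 0 to 2 without a library. Without a library the DMSO step gave 2133 to 3634 calls, the wild-type step 357 to 1707 and the mutant step 323 to 700, and the wild-type groups alone gave 217. With a replicate block, same-numbered libraries paired, the GSK343 step gave 4928 calls, the difference of steps 10, the DMSO step 6501, the wild-type step 2276 and the mutant step 1808, and Ezh2, Suz12 and Nphs1 then passed in the GSK343 step. The labels do not say what the numbers share, and with 2 libraries a group the block is a hint only. Deviations from the group means correlated at 0.358 between the GSK343 ES cell and day 4 libraries. They correlated above 0.1 in 15 of 15 group pairs of the GSK343 and DMSO libraries (0.177 to 0.666). Among the wild-type and mutant libraries, same-numbered pairs ran from -0.259 to 0.806, so the pairing was not uniform there. The causes of these shifts were not tested. ES cell library 2, at 5.01 M reads, limits low genes most.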

Other observations

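Gene families beyond those described above also moved in the GSK343 step. They were picked after their values were seen, so their counts are descriptions. Over all genes 9.75% were called higher and 12.3% lower. Of 29 tested genes of the interferon-gamma response and antigen presentation 18 were called higher and 2 lower (median 1.18). Gbp2, a guanylate-binding protein, had 16.4 and 20.4 RPKM at day 4 and 5.92 and 0.651 RPKM in ES cells (log2 difference 2.51, SE 0.66, adjusted p = 0.0232). Psmb8, a subunit of the immunoproteasome, had 7.25 and 14.5 RPKM at day 4 and 2.21 and 0.980 RPKM in ES cells (log2 difference 2.16, SE 0.36, adjusted p = 0.00300), and Tap1, a peptide transporter, had 11.8 and 8.30 RPKM at day 4 and 2.68 and 2.23 RPKM in ES cells (log2 difference 1.66, SE 0.23, adjusted p = 0.00113). All 3 genes were higher in both day 4 libraries. B2m, the light chain of class I molecules, went the other way with 18.2 and 18.9 RPKM at day 4 and 38.1 and 26.3 RPKM in ES cells (log2 difference -0.74, SE 0.22, adjusted p = 0.0341). With a GSK343 library left out, 8 to 16 members were called higher, and in the DMSO step 16 were called higher and 2 lower.

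Along the imprinted Dlk1-Dio3 region 9 of 10 tested transcripts were called higher (median 1.86), against 9.75% of all genes. The called entries include Mirg and the microRNA genes Mir668, Mir3070a and Mir3070b. Such entries may share reads with longer transcripts, so the 9 calls may not be separate readings. Meg3, given above among the imprinted genes, lies in the same region. Mirg, a maternally expressed microRNA host, had 28.6 and 36.7 RPKM at day 4 and 7.89 and 6.77 RPKM in ES cells (log2 difference 2.01, SE 0.27, adjusted p = 0.000991). Rtl1, a paternally expressed retrotransposon-derived gene that lies antisense to transcripts of this region, had 10.3 and 7.02 RPKM at day 4 and 2.14 and 1.67 RPKM in ES cells (log2 difference 1.72, SE 0.42, adjusted p = 0.0171), and with strand not given its reads cannot be told apart from theirs. Dlk1, the region's paternally expressed ligand gene, had 0.156 and 0.166 RPKM at day 4 and 0.0212 and 0.0415 RPKM in ES cells and did not pass (adjusted p = 0.455). Without a library 3 to 8 transcripts were called, and 6 in the DMSO step. Of 10 annexins, which bind membrane phospholipids with calcium, 0 were called higher and 8 lower (median -1.48), but only 2 or 3 with a library left out. Anxa2 had 12.3 and 8.47 RPKM at day 4 and 116 and 147 RPKM in ES cells (log2 difference -3.55, SE 0.36, adjusted p = 0.000254), and feeder markers moved with it, whose part was not tested. Of 10 carbonic anhydrases 5 were called higher and 0 lower, 2 to 5 of them with a library left out. Car14 had 6.76 and 11.4 RPKM at day 4 and 0.499 and 0.412 RPKM in ES cells (log2 difference 2.75, SE 0.32, adjusted p = 0.000498).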
